A study of Mus musculus with 16 samples.

Results

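The comparison is of naive CD4+ T cells with and without the transcription factor Dec1 after stimulation through the T cell receptor and CD28 together. It rests on 8 of the 16 arrays of the series, chosen by their labels: 4 arrays of DEC1 knock-out cells and 4 of wild-type cells, all given anti-CD3 plus anti-CD28. All cells were B6 mouse cells from spleen and lymph nodes, sorted as CD4+, CD62L high and CD25 negative, then kept at a density of 1000000 per ml, with 10% serum in the medium, for 24 h. The stimulus was latex beads that carried both antibodies. The remaining 8 arrays, 4 of each genotype, came from cells given beads with anti-CD3 alone. The groups are called wild type (WT) and knockout (KO) here. No other allele is stated. The labels give neither the ages of the mice nor which part of the gene was removed, nor in which tissues. Replicates are numbered 1 to 4, and whether each number stands for its own animal is not stated, so the p-values cover only variation from sample to sample, some of it possibly technical.

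Dec1 is a basic helix-loop-helix protein encoded by Bhlhe40. It represses transcription from the E-box CACGTG, where it competes with the activators of the circadian clock, and it is itself a clock-controlled gene. Anti-CD3 engages the T cell receptor complex and anti-CD28 engages the costimulatory receptor CD28. Together these signals start growth, division and the secretion of interleukin-2, and Bhlhe40 is among the genes that activated T cells express. In effector T cells Dec1 is known for a part in the production of cytokines such as GM-CSF.

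The E-box was looked up in promoter windows from RefSeq (GRCm38.p6), each of 250 bases before a gene's start and 50 after it. The letters CACGTG read the same on both strands, so a single search covers both. Of the 12467 tested genes off the X and Y chromosomes with a window, 10.5% held the letters, as did 7.15% of all windows in the table. Among the 15 circadian clock genes with a window there were 4 (26.7%). The stretches below are the 250 bases before the start, with each CACGTG in capitals. Ciart and Per1 are clock genes that carry it. Il3 and Eomes are shown for mean differences under this stimulus that were among the largest after Bhlhe40 itself, although their groups overlapped. RefSeq gave no window for Bhlhe40 in the table used here.
Ciart (chr3:95882229-95882478, minus strand): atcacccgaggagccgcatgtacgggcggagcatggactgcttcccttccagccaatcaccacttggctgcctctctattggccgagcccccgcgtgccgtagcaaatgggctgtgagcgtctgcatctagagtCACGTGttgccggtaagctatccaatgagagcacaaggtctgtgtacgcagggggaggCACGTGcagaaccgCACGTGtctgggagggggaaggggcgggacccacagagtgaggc
Per1 (chr11:69098699-69098948, plus strand): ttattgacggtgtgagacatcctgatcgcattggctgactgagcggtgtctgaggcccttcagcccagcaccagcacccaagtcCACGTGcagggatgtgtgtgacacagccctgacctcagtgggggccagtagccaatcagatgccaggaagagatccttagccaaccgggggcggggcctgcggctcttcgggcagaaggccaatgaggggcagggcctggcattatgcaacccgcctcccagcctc
Il3 (chr11:54267280-54267529, minus strand): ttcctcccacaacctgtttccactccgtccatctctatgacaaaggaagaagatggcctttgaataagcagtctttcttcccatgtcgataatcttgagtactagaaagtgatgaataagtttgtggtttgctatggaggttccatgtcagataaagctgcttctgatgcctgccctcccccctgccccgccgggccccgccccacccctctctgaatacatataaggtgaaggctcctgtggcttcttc
Eomes (chr9:118477939-118478188, plus strand): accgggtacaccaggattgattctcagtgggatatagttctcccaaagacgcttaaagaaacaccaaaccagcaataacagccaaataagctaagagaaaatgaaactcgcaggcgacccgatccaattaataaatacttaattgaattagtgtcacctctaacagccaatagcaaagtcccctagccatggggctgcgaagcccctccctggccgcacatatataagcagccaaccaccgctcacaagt
The Ciart stretch held 3 copies, which began at -116, -58 and -44 relative to the start. The Per1 stretch held 1, at -166, and is 1 of 2 Per1 windows in the table. The Il3 and Eomes stretches held 0 copies. A match is a description of the letters and not a site of binding.

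Values were log2 signals, and 16427 genes were tested. Array medians lay between 6.64 and 6.81 in wild type and between 6.73 and 6.81 in knockout. Correlations between arrays across the tested genes were 0.976 to 0.995 within a genotype and 0.977 to 0.995 between genotypes. The number of arrays limits the precision. Cd4, the gene of a marker used in the sort, and Cd3e, a subunit of the T cell receptor complex, had mean signals of 11.06 and 11.46 in wild type and 10.95 and 11.36 in knockout. The first component of the deviations from the group means held 61.3% of their variance. Replicates 1 and 2 had the opposite sign to replicates 3 and 4 on it in both genotypes. Wild-type replicate 3 was weak there, at -0.081, beside 0.268 for replicate 2 and -0.538 for replicate 4. The labels name no batch. Xist was high in wild-type replicate 1 and knockout replicates 2 and 4 of both stimuli and low in the others, so genes on X and Y are left out of what follows unless stated.

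Bhlhe40 itself was the 1 gene that differed between the genotypes after adjustment over all genes, which is 0.00609% of those tested. Its log2 signals in wild type were 10.07, 10.03, 9.38 and 8.55 in replicates 1 to 4. In knockout they were 6.07, 5.88, 5.86 and 5.73. Every knockout array lay below every wild-type array, and the wild-type arrays spread over a wider range than the knockout arrays. The means were 9.51 ± 0.71 and 5.88 ± 0.14 (SD, n = 4), a difference of -3.62 with a standard error of 0.27 (limma, adjusted p = 3.76e-06). On all 4 knockout arrays the signal was under the level that 95% of the 1240 probes for smell, pheromone and taste receptors stayed below, so it is not well above background there. With knockout set at that level, Bhlhe40 was at least 8.27-fold lower than in wild type, and 12.3-fold lower as measured. The labels do not say where the probe lies relative to the deleted part.

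Under anti-CD3 alone wild-type Bhlhe40 measured 8.02, 7.63, 7.59 and 7.0, and knockout 5.57, 5.95, 5.43 and 5.18. The genotypes did not overlap there either, and differed by -2.03 (limma, adjusted p = 0.00548), which is at least 1.92-fold lower against the background level of those arrays. The knockout arrays were thus near background under both stimuli, while wild-type cells measured more Bhlhe40 with anti-CD28 than without it. The difference between the 2 genotype effects was -1.59 with a standard error of 0.39, which did not pass adjustment over all genes (limma, adjusted p = 0.905).

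**Figure D1:**
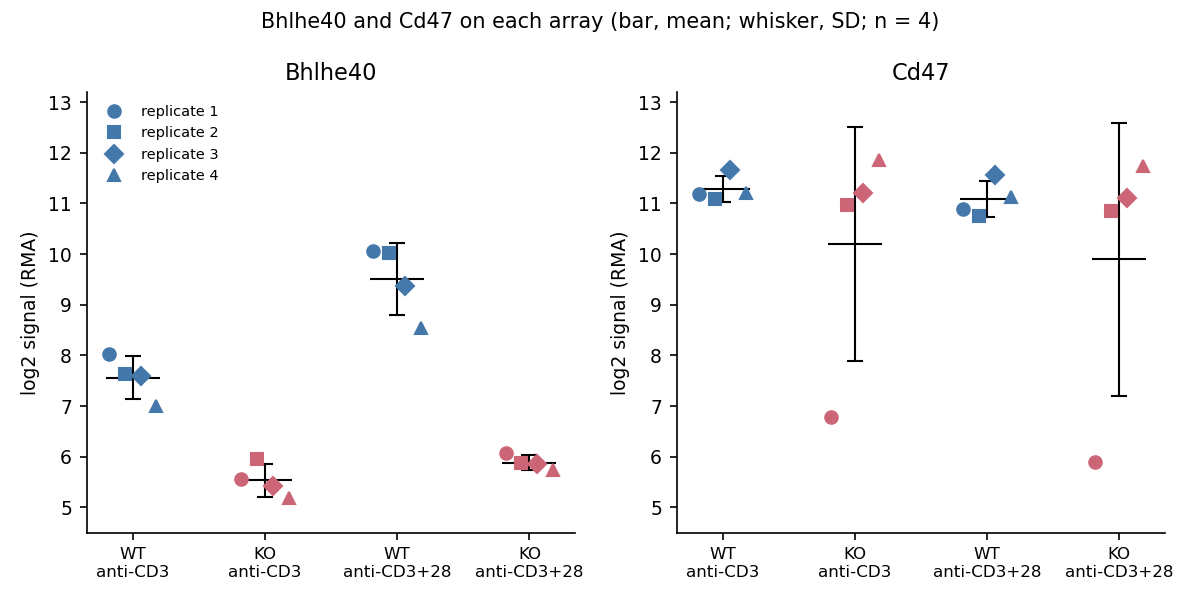
Log2 signal of Bhlhe40 (left) and Cd47 (right) on each of the 16 arrays, by genotype and stimulus, with the marker shape giving the replicate number. The bar is the mean and the whisker the SD of 4 arrays. Bhlhe40 was below 6.1 on every knockout array, and Cd47 was low on knockout replicate 1 under both stimuli.

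No other gene was called. The adjusted p of every gene apart from Bhlhe40 was at least 0.999. At an unadjusted p under 0.05, 451 genes were higher in knockout (2.75%) and 94 were lower (0.572%), together 3.32% of all genes. With the replicate number as a block the unadjusted count was 1016 in place of 545, and the lowest adjusted p after Bhlhe40 was 0.65. In a blocked fit of the 8 arrays alone it was 1353, and the lowest adjusted p was 0.103. Bhlhe40 stayed the 1 called gene in both blocked fits. The 9807 other probes, which have no single gene symbol, gave 0 calls by limma and 319 at an unadjusted p under 0.05.

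The arrays bounded most differences in signal tightly. The median standard error of the genotype difference was 0.11, and the 95% interval of a gene's difference, taken for each gene on its own, reached 0.23 to either side in the median. It lay within a 1.5-fold difference in either direction for 15567 genes (94.8%) and within 2-fold for 16362 (99.6%). These counts include the 5476 dimmest genes, with mean signals of 5.03 to 6.75. For signals near background a narrow interval does not bound a difference in RNA. Besides Bhlhe40, 57 genes off X and Y had an interval that reached past 2-fold. Only 3 genes off X and Y had a difference over 1 on the log2 scale in either direction, namely Bhlhe40, Il3 and Cd47, and 14 had one over 0.5.

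**Figure D2:**
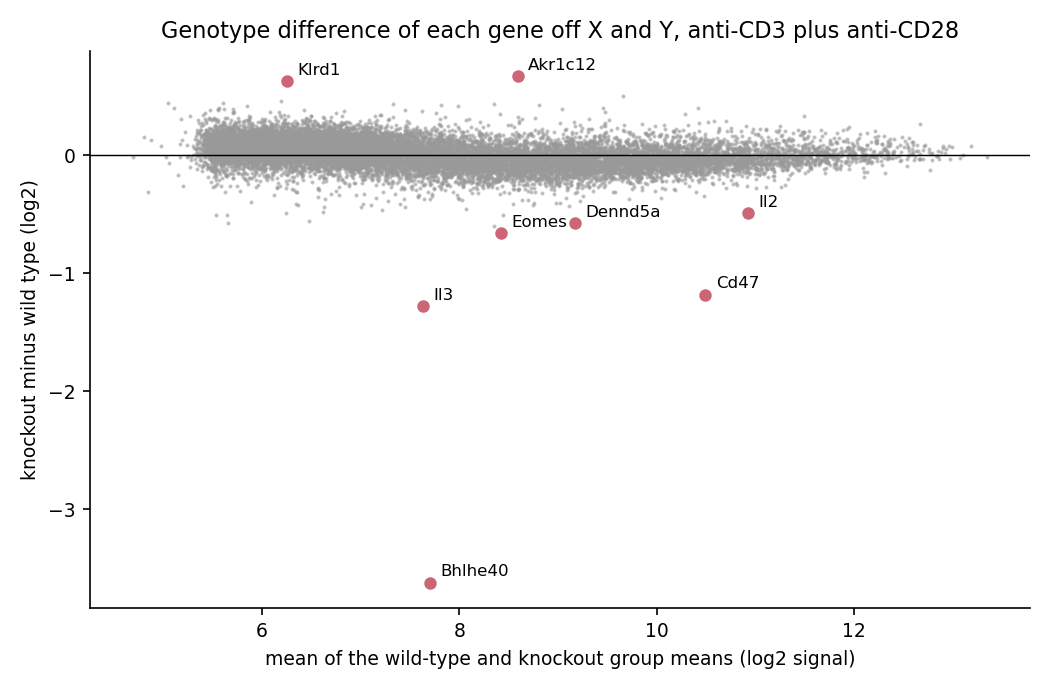
Difference between the genotypes (knockout minus wild type, log2) of each tested gene off X and Y under anti-CD3 plus anti-CD28, against the mean of both group means. Bhlhe40 at -3.62 lies apart from the rest, and the named genes are those with large differences or with close agreement among same-numbered arrays.

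Cytokines are the products by which activated helper cells act on other cells, and 24 of 30 listed could be tested. None was called, 12 had a difference above 0 and 12 below, and 0 had groups that did not overlap. The median difference was -0.00, against 0.016 over all genes. In 5 of the 24 (20.8%) knockout lay below wild type in all 4 same-numbered pairs, as did 5.94% of all genes. Those pairs matter here because same-numbered arrays deviated together. The arrays of pairs 1, 2 and 4 also differed in Xist level, so their differences carry that mismatch too. Il1a, 1 of the 5 lower in all pairs, was near background on 2 arrays of each genotype. Il3, also among the 5, was near background on 1 wild-type array and 2 knockout arrays. Il5, Il6, Il10 and Il21 were too dim to test. As these are bulk samples, fewer cells that express a gene and less of its RNA per cell cannot be told apart.

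Il3, which encodes interleukin-3, a growth factor for blood-forming cells, had the lowest difference of the cytokines. It measured 9.89, 10.03, 6.8 and 6.36 in wild type and 8.36, 8.81, 4.99 and 5.80 in knockout. Knockout was lower in each same-numbered pair (differences of -1.81 to -0.56), but the genotypes overlapped because replicates 1 and 2 stood over 2 units above replicates 3 and 4 in both. The difference was -1.28 with a standard error of 0.82 and a 95% interval of -3.02 to 0.46 (limma, adjusted p = 0.999; 0.799 with the replicate block and 0.107 in the blocked fit of 8 arrays). It was called only with replicates 1 and 2 alone, at -1.37 (limma, adjusted p = 0.0382), with 2 arrays a group. Under anti-CD3 alone all 8 arrays lay at 4.13 to 5.16.

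Il2, the T cell growth factor interleukin-2, showed the same layering by replicate. It measured 11.73, 11.82, 10.44 and 10.67 in wild type and 11.38, 11.50, 9.70 and 10.13 in knockout. Knockout was lower in all 4 pairs (-0.74 to -0.32), and the mean difference was -0.49 with a standard error of 0.37 (limma, adjusted p = 0.999). In the blocked fit of 8 arrays the adjusted p was 0.503. Csf2, which encodes GM-CSF, measured 7.57, 7.82, 5.39 and 5.50 in wild type and 6.96, 6.89, 5.21 and 5.52 in knockout. Replicates 1 and 2 were the ones in which knockout was clearly below wild type, and the difference was -0.42 with a standard error of 0.49. Both groups had 2 arrays near background.

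Ifng, the gene of interferon gamma, measured 8.32, 7.53, 7.16 and 7.2 in wild type and 7.31, 7.63, 7.03 and 7.18 in knockout. Wild-type replicate 1 was the high array, and the difference of -0.27 became -0.01 without it. Tnf, which encodes tumour necrosis factor, lay at 9.79 to 10.97 in wild type and 10.18 to 10.65 in knockout, with a difference of 0.03 (95% interval -0.47 to 0.52). Lif, a cytokine of the interleukin-6 family, had a difference of -0.26 and was lower in 2 of 4 pairs. Tnfsf14, the gene of the ligand LIGHT, was lower in 4 of 4 pairs with a difference of -0.37. None of these differences passed the test.

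**Figure D3:**
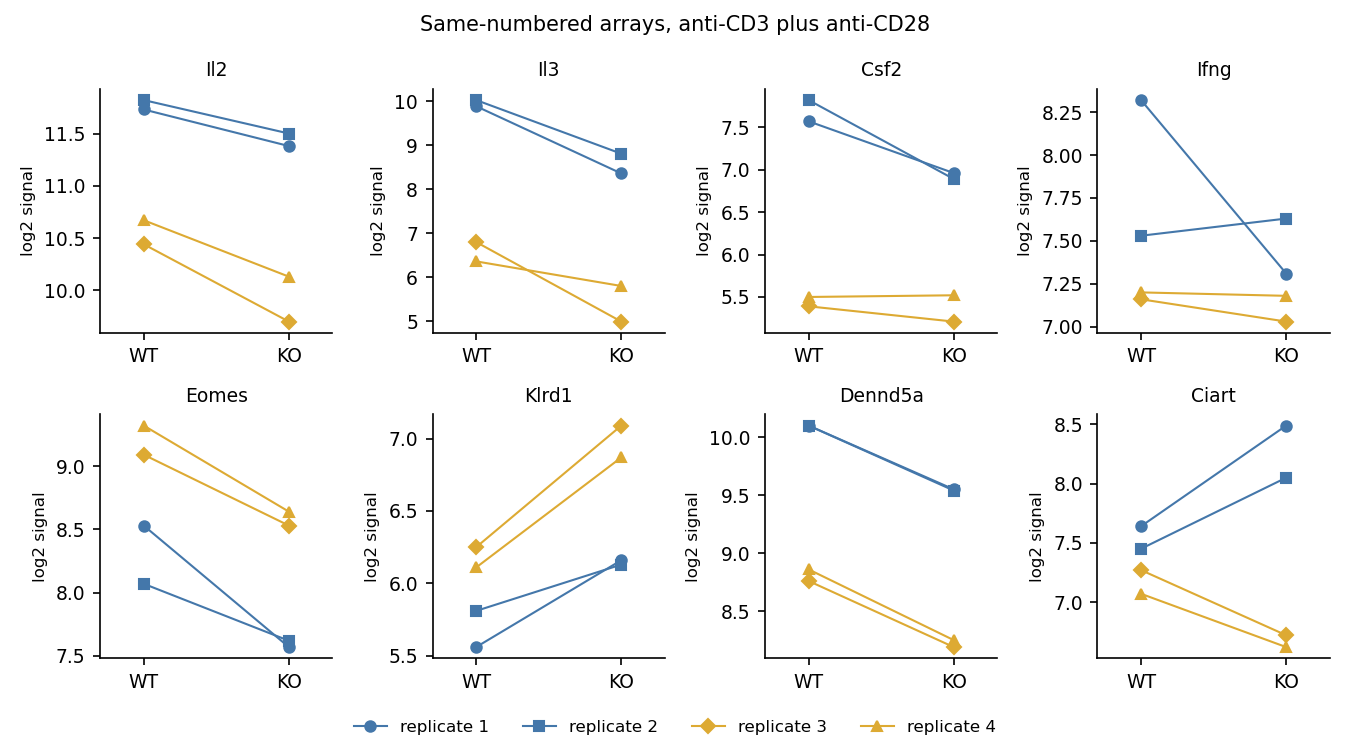
Log2 signal of 8 genes in wild type and knockout under anti-CD3 plus anti-CD28, with a line joining arrays of the same replicate number (blue, replicates 1 and 2; yellow, replicates 3 and 4). Il2, Il3, Eomes and Dennd5a slope down in all 4 pairs and Klrd1 slopes up, whereas Ciart slopes up in replicates 1 and 2 and down in replicates 3 and 4.

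Receptors of activation and costimulation were close to equal in the 2 genotypes. Of 29 tested, 0 were called, 12 had a difference above 0 and 17 below, and the median was -0.02, with differences of -0.25 for Nrn1 to 0.13 for Il7r. Il2ra, the high-affinity subunit of the interleukin-2 receptor, measured 11.74, 11.77, 12.22 and 12.26 in wild type and 11.75, 11.90, 12.17 and 12.20 in knockout. The groups overlapped and the difference was 0.01 (95% interval -0.40 to 0.41). The inhibitory receptor gene Ctla4 had a difference of 0.02, the costimulatory receptor genes Icos and Cd28 each had 0.07, and the early activation marker Cd69 had -0.02. For all but 1 of the 29 the interval lay within 2-fold. The list of the interleukin-2 receptor and its STAT5 feedback genes had a median of 0.00 over 12 members, 6 above 0 and 6 below.

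Among 27 genes of T cell receptor signalling, 20 had a difference below 0 and 7 above, with a median of -0.05 and 0 calls. Groups did not overlap for 2, both lower in knockout, against 0.645% of all genes. Vav1, an exchange factor that acts downstream of the receptor, measured 9.44, 9.40, 9.54 and 9.42 in wild type and 9.31, 9.23, 9.35 and 9.29 in knockout. The groups did not overlap, at a difference of only -0.15 (limma, adjusted p = 0.999). Of 16 members of the NF-kB family and its targets, 14 had a difference below 0, with a median of -0.10 and a lowest value of -0.19 for Traf1. AP-1, NFAT, EGR and NR4A factors had 22 of 29 below 0 and the same median. Groups did not overlap for 0 members of those 2 lists. Among the 5476 genes with the highest mean signal, where the median member of the NF-kB list lies, 64.6% had a difference below 0, against 44.4% of all genes. Among the 5475 genes of middle signal, where the median member of the AP-1 list lies, the share was 45.1%.

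**Figure D4:**
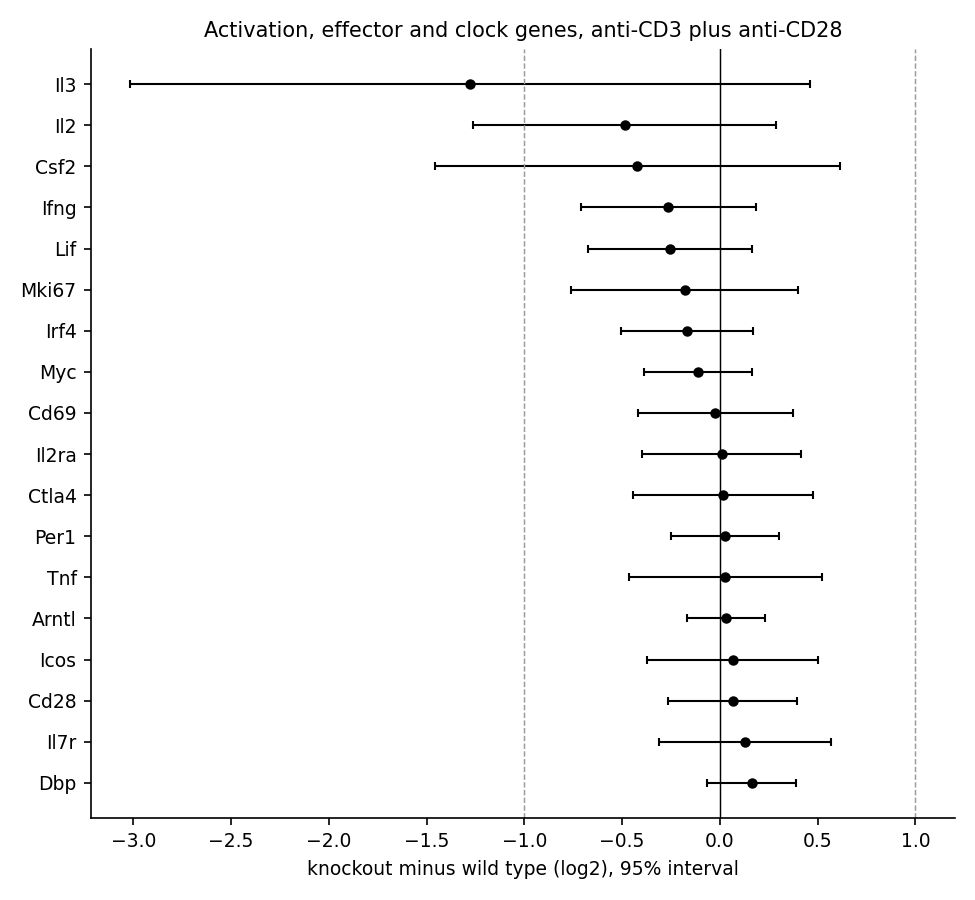
Difference between the genotypes (log2) of activation, effector, proliferation and clock genes under anti-CD3 plus anti-CD28, with its 95% interval. Dashed lines mark a 2-fold difference. All intervals contain 0, and those of Il3, Il2 and Csf2 reach past 2-fold lower.

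Transcription factors that direct helper lineages had no called member among 21 tested, with 15 differences below 0, 6 above and a median of -0.05. Knockout was lower in all 4 pairs for 6 of them (28.6%), against 5.94% of all genes. Eomes, a T-box factor of cytotoxic and memory T cells, had the lowest value. It measured 8.53, 8.07, 9.09 and 9.32 in wild type and 7.57, 7.62, 8.53 and 8.64 in knockout. Knockout was lower in each pair (-0.96 to -0.45), while the higher knockout arrays overlapped the lower wild-type arrays. The difference was -0.66 with a standard error of 0.27 and a 95% interval of -1.23 to -0.09 (limma, unadjusted p = 0.0257, adjusted p = 0.999; adjusted p = 0.16 in the blocked fit of 8 arrays). Under anti-CD3 it measured 7.71, 7.94, 7.78 and 7.64 in wild type and 6.78, 6.68, 7.23 and 7.43 in knockout. The groups there did not overlap, and the difference was -0.74 (limma, adjusted p = 0.13). The related T-box gene Tbx21 had a difference of -0.14, Gata3 of the Th2 lineage -0.17 and Bcl6 of follicular helper cells -0.06. The effector factor Irf4 had -0.17 and Myc, a driver of growth, -0.11.

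Among relatives of Dec1, 20 Id proteins, E proteins and other basic helix-loop-helix genes had a median of 0.02 and 0 calls. Hes1, a repressor downstream of Notch, measured 6.36, 6.59, 6.52 and 6.39 in wild type and 6.71, 6.60, 6.66 and 6.59 in knockout. The groups did not overlap, although the lowest knockout and the highest wild-type array were equal to 2 decimals, and the difference was 0.18 (limma, adjusted p = 0.999). Bhlhe41, which encodes Dec2, the closest relative of Dec1, was too dim to test, with signals of 4.38 to 4.86 on the 8 arrays.

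The circadian clock list had 17 tested members and 0 calls. There were 9 differences above 0 and 8 below, the median was 0.02, all 17 intervals lay within 2-fold, and 0 members had groups that did not overlap. Dbp, an output gene of the clock, measured 7.21, 7.22, 7.57 and 7.55 in wild type and 7.49, 7.38, 7.66 and 7.68 in knockout. Knockout was higher in each pair, by 0.09 to 0.28, with overlapping groups and a difference of 0.16. Per1, whose promoter carries the E-box, had a difference of 0.03 (95% interval -0.25 to 0.30), and the clock activator gene Arntl also had 0.03. Tef and Cry1, clock genes whose windows also held the E-box, had differences of -0.03 and 0.03.

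Ciart, a repressor of the clock with 3 copies of the E-box in its promoter window, behaved differently by replicate number. It measured 7.64, 7.45, 7.27 and 7.07 in wild type and 8.49, 8.05, 6.72 and 6.62 in knockout. The pairs differed by 0.85 and 0.59 in replicates 1 and 2 and by -0.55 and -0.46 in replicates 3 and 4, so the mean difference was 0.11 with a standard error of 0.40. Under anti-CD3 the same gene measured 8.10, 8.43, 7.47 and 7.19 in wild type and 7.86, 7.81, 6.85 and 6.48 in knockout, below wild type in all 4 pairs. Over all genes whose groups did not overlap, the E-box stood in 11.1% of the promoters of those higher in knockout (28 of 252) and in 10.7% of those lower (9 of 84), against 10.5% of all tested.

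Differences of mitosis genes were small and mostly below 0. Of 43 tested, 41 had a difference below 0, against 64.6% of the 5476 brightest genes and 44.4% of all. The median of the list was -0.14, and 0 members were called. The groups did not overlap for 5 of them, lower in knockout in each case, as for 0.645% of all genes and 0.804% of the 5476 brightest. Knockout was lower in all 4 pairs for 15 (34.9%), against 9.66% of the brightest genes. The median lay between -0.19 and -0.09 under all 22 alternatives. Some of these, such as the replicate blocks, cannot change the differences in this balanced design and so add no separate support. At an unadjusted p under 0.05 there were 3 members of the list, all lower. Aurka, a kinase of the spindle poles, measured 9.39, 9.18, 9.14 and 9.22 in wild type and 8.93, 9.03, 8.91 and 8.90 in knockout. The knockout arrays were all below the wild-type arrays, with a difference of -0.29 (limma, unadjusted p = 0.00663, adjusted p = 0.999). Plk1, a kinase that drives entry into mitosis, measured 9.61, 9.25, 9.50 and 8.93 in wild type and 9.15, 9.20, 8.68 and 8.55 in knockout. It was lower in all pairs, with overlapping groups and a difference of -0.43. The spindle proteins Kif2c, Tpx2 and Cenpe had groups that did not overlap, with differences of -0.31, -0.30 and -0.27. Mki67, the proliferation marker Ki-67, had -0.18 and was lower in 3 of 4 pairs.

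Genes of DNA replication and the G1/S transition lay nearer to equality. Of 53 tested, 42 had a difference below 0, against 64.6% of the brightest genes and 44.4% of all. The median of the list was -0.07 and 0 members were called. Groups did not overlap for 3, all lower, and 9 (17%) were lower in all pairs, against 0.804% and 9.66% of the brightest genes and 0.645% and 5.94% of all. Ccnd2, a D-type cyclin, measured 11.41, 11.31, 11.60 and 11.42 in wild type and 11.21, 11.16, 11.24 and 11.30 in knockout. Its groups did not overlap, and the difference was -0.20 (limma, adjusted p = 0.999). DNA repair and checkpoint genes had a median of -0.08 over 21 members.

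Metabolic lists were likewise close to 0 in their medians. Cholesterol and fatty acid synthesis had 23 of 27 differences below 0, a median of -0.09 and 4 members lower in all 4 pairs (14.8%). Among the brightest genes, where its median member lies, 64.6% were below 0 and 9.66% lower in all pairs, against 44.4% and 5.94% of all. Scd2, a stearoyl-CoA desaturase, measured 8.93, 8.85, 8.88 and 8.12 in wild type and 8.42, 8.44, 7.88 and 8.02 in knockout, a difference of -0.51 (limma, unadjusted p = 0.0108). Insig1, a sterol sensor that is itself induced by SREBP, measured 10.36, 10.38, 10.04 and 10.13 in wild type and 10.07, 9.98, 9.66 and 9.76 in knockout. Knockout was lower in each pair although the groups overlapped, and the difference was -0.36 (limma, adjusted p = 0.999). Glycolysis had a median of -0.07, MYC and ribosome biogenesis -0.05, aminoacyl-tRNA synthetases -0.04 and the respiratory chain 0.04. The list of amino acid transport and ATF4 targets had a median of -0.01 over 31 members, 15 above 0 and 16 below, with 0 calls. Its members Cebpb and Trib3, which encode a stress-responsive factor and a pseudokinase, each had a difference of 0.26. Cebpb was near background on 2 wild-type arrays and 1 knockout array.

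Some other genes stood out by their pairs and were chosen after their values were seen. Dennd5a, an exchange factor for Rab proteins, measured 10.10, 10.10, 8.76 and 8.86 in wild type and 9.55, 9.54, 8.19 and 8.25 in knockout. The pairs differed by -0.60 to -0.56, the closest to a call after Bhlhe40 in the blocked fit of 8 arrays (limma, adjusted p = 0.103), while the fit without the block gave 0.999. Klrd1, the gene of the NK cell receptor CD94, was the counterpart in the other direction. It measured 5.56, 5.81, 6.25 and 6.11 in wild type and 6.16, 6.13, 7.09 and 6.87 in knockout, higher by 0.32 to 0.84 in each pair. The difference was 0.63 (limma, adjusted p = 0.999; 0.219 in the blocked fit of 8 arrays). All 4 wild-type and 2 knockout arrays were near background. Under anti-CD3 Klrd1 measured 9.15, 9.09, 9.41 and 9.79 in wild type and 9.70, 10.37, 10.18 and 10.86 in knockout, a difference of 0.92 (limma, adjusted p = 0.0755).

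Groups did not overlap for 346 genes higher in knockout (2.11%) and 106 lower (0.645%), 9 and 4 of them on X or Y. Knockout was higher in all 4 pairs for 12.6% of all genes and lower for 5.94%. The genes of the first kind were mostly dim. Of the 5476 genes with the lowest signals, 193 were apart and higher and 19 apart and lower. Of the 5475 in the middle there were 118 and 43, and of the 5476 brightest 35 and 44. The median difference was 0.072, 0.014 and -0.034 in these classes. Receptor probes for smell, pheromones and taste, which T cells are not expected to express, had a median difference of 0.067. With each array centred on its median, 217 genes were apart and higher and 217 lower, so that the share higher was 50% in place of 76.5%. With quantile normalization again there were 284 higher and 115 lower (71.2% higher), and among the brightest genes 64 higher and 34 lower, the other way from the values as deposited. Centring moves every gene by the same amount on an array and so shifts this balance by its construction. The part of this shift of dim probes in the counts was not tested.

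The differences of the genes that were apart were small. Off X and Y they reached 0.44 upward and, without Bhlhe40, -0.55 downward. Examples chosen after their values were seen are Tubb2b, a beta-tubulin, at 0.38, and Pdk4, a kinase that restrains pyruvate dehydrogenase, at 0.35. Pdk4 lay near background on all 8 arrays. Bbc3, which encodes the pro-apoptotic protein PUMA, measured 6.61, 6.47, 6.47 and 6.59 in wild type and 6.62, 6.86, 6.93 and 6.91 in knockout, a difference of 0.29. Fnbp1l, a protein that links membrane curvature to actin, measured 7.63, 7.67, 7.56 and 7.64 in wild type and 7.16, 7.02, 7.47 and 7.35 in knockout, a difference of -0.37. All of these had an adjusted p of 0.999 by limma.

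A few large differences lay on arrays of 1 genotype and replicate number. Cd47, the "don't eat me" surface protein that binds SIRP alpha, measured 10.90, 10.75, 11.56 and 11.12 in wild type and 5.90, 10.85, 11.11 and 11.74 in knockout. Knockout replicate 1 alone was low, near background, and the difference of -1.18 became 0.15 without it. Under anti-CD3 the values were 11.18, 11.09, 11.67 and 11.20 in wild type and 6.79, 10.96, 11.21 and 11.85 in knockout, so the array with the same genotype and number was again the low one. Looking for such genes over all tested, 7 off X and Y had 1 combination of genotype and replicate number outside the other 7 arrays by over 0.5 under both stimuli, and only Cd47 by over 1. Akr1c12 and Akr1c13, aldo-keto reductases, were above the other arrays in knockout replicate 3. The interferon-inducible GTPase genes Iigp1 and Irgm1, the factor gene Irf1 and the predicted gene Gm4951 were above them in wild-type replicate 1. Wild-type replicate 1 was also the high array for Ifng under anti-CD3 plus anti-CD28. The interferon list had 24 of 33 differences below 0, a median of -0.08 and 0 calls, with Iigp1 lowest at -0.60. A difference below 0 was found for 44.4% of all genes and 45.1% of those of middle signal, where the list's median member lies.

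The mean signal of 16 B cell markers was 6.49 to 6.62 on wild-type arrays and 6.59 to 6.66 on knockout arrays, with a median difference of 0.06. Of these 16, 12 had a difference above 0 and 4 below. Knockout was higher in all pairs for 4 (25%), against 12.6% of all genes. The list's median wild-type signal, 6.11, lies among the dimmest genes, whose median difference was 0.072. Pou2af1, a B cell coactivator gene, measured 8.04, 7.97, 8.33 and 8.61 in wild type and 8.48, 8.47, 8.59 and 8.81 in knockout, a difference of 0.35 with overlapping groups (limma, unadjusted p = 0.0252, adjusted p = 0.999). Under anti-CD3 its difference was -0.19. The mean signal of 24 myeloid and dendritic cell markers was 6.26 to 6.37 and 6.28 to 6.40, with a median difference of 0.04. For 11 CD8 and NK cell markers, Eomes and Klrd1 among them, it was 7.52 to 7.59 and 7.52 to 7.69, with a median of 0.10, while 7 more, such as Ncr1 and Klrb1c, were too dim to test. For 8 erythroid and platelet markers it was 6.58 to 6.8 and 6.61 to 6.8, with 0.05. On all arrays of a group, 8 B cell and 12 myeloid markers in wild type and 7 and 13 in knockout were near background. T cell identity markers had a mean of 10.67 to 11.10 in wild type and 10.78 to 10.92 in knockout and a median difference of -0.03 over 12. The part of other cells in the differences above was not tested.

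Genes near Bhlhe40 on chromosome 6 lie beside the modified locus. Of the nearest 50 tested genes on either side, 0 were called by limma, 9 of 100 had an unadjusted p under 0.05, against 3.32% of all genes, and the median difference was 0.026. Groups did not overlap for 8 higher in knockout, against 2.11% of all genes, and for 1 lower, against 0.645%. The largest difference was 0.33, for the oxytocin receptor gene Oxtr. The window of 25 genes on either side also gave 0 calls, as did that of 100.

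Set beside anti-CD3 alone, the same loss of Dec1 went with more called genes. There 46 genes were higher in knockout (0.28%) and 123 lower (0.749%), and 1954 in all were called with the replicate block. The count depended on single arrays, from 7 genes without WT_CD3 replicate 3 to 452 without KO_CD3 replicate 3. The 117 genes off X and Y called lower there, Bhlhe40 aside, had a median difference of -0.66 under anti-CD3 and of -0.11 under anti-CD3 plus anti-CD28, where they ranged from -0.51 to 0.14. The groups did not overlap for 8 of them under the second stimulus, against 0.645% of all genes apart and lower there. The 45 called higher had medians of 0.43 and 0.09, and 2 did not overlap under the second stimulus, against 2.11% apart and higher. Since these genes were chosen by their calls under anti-CD3, a smaller difference under the other stimulus follows in part from that choice.

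Genes of the cell cycle and activation lists, together with Rgs1, serve as examples, and all of them were called under anti-CD3. Orc1, a subunit of the origin recognition complex, measured 7.49, 7.36, 7.83 and 7.29 in wild type and 6.67, 6.68, 6.79 and 6.76 in knockout under anti-CD3, a difference of -0.77 (limma, adjusted p = 0.00586). With anti-CD28 it measured 9.67, 9.79, 9.47 and 9.51 in wild type and 9.76, 9.68, 9.55 and 9.52 in knockout, a difference of 0.02. The replicative helicase gene Mcm3 had -1.15 and -0.13, the neuritin gene Nrn1 -1.35 and -0.25, and the signalling regulator gene Rgs1 -1.39 and -0.13. For Myc the values were -0.60 and -0.11. The DNA replication list had a median of -0.67 under anti-CD3, with 16 of 53 called lower, and the mitosis list -0.58, with 5 of 43 called lower. Over all genes the median there was 0.033, and 0.749% were called lower.

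The test of the difference between the 2 genotype effects called 0 genes (0.0%), with 867 at an unadjusted p under 0.05 and a lowest adjusted p of 0.905 (limma). For Orc1 that difference was 0.78 (limma, unadjusted p = 8.51e-05, adjusted p = 0.905). With replicates 1 and 2 alone 80 genes were called. With the replicate block 0 genes were called, but the lowest adjusted p was 0.0942, shared by 3 genes with Bhlhe40 among them, and that of Orc1 was 0.164 (limma). None of these fits paired the 2 stimuli within a genotype and replicate number, although Xist and Cd47 levels matched across the stimuli that way. Whether the effect of Dec1 loss depends on CD28 was thus not settled by these tests.

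**Figure D5:**
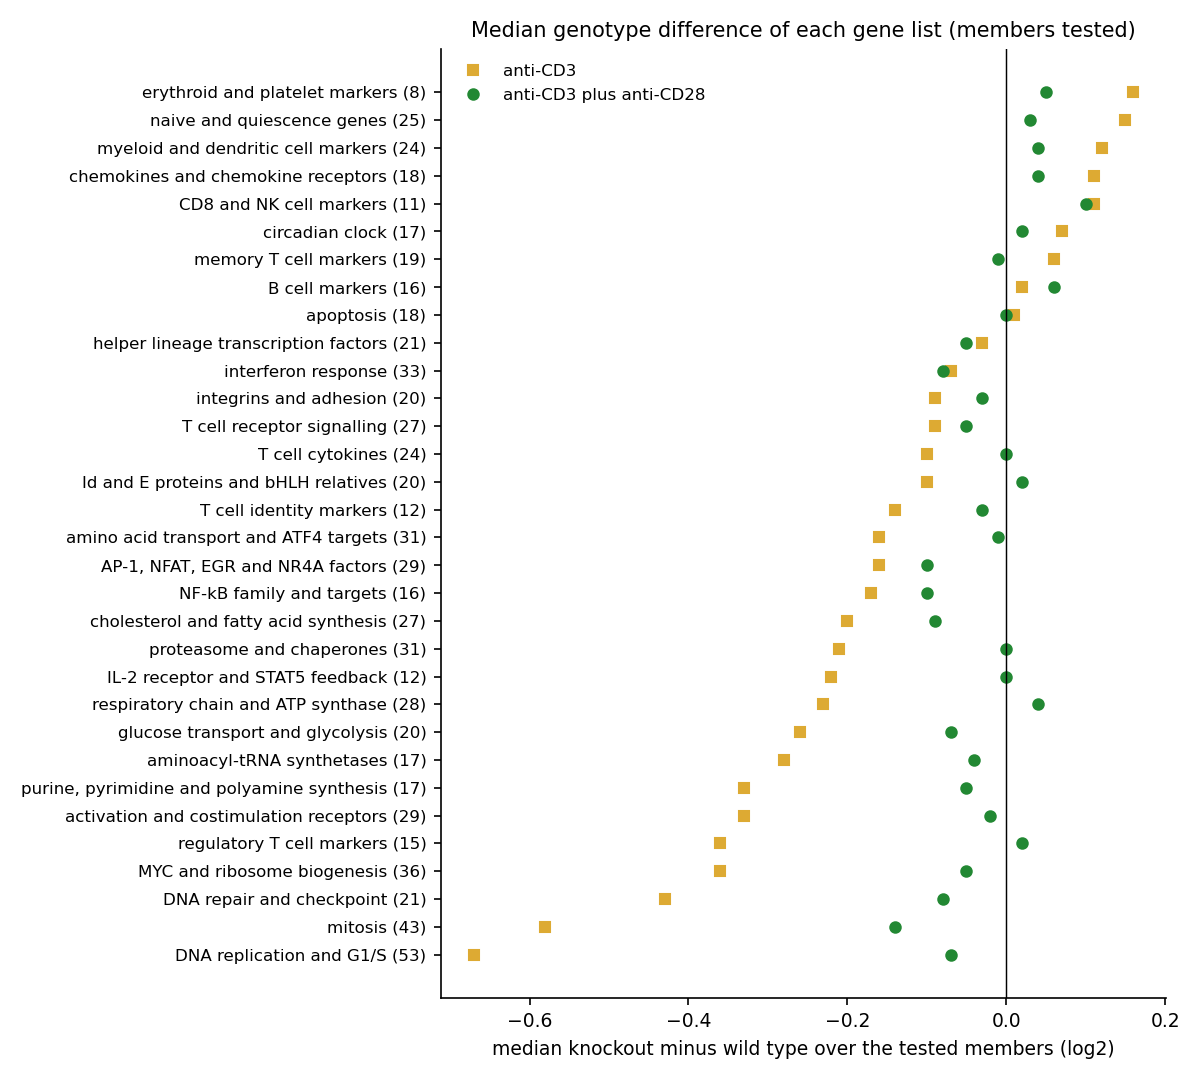
Median difference between the genotypes (knockout minus wild type, log2) over the tested members of each gene list, under anti-CD3 (squares) and under anti-CD3 plus anti-CD28 (circles), with the number of members tested in brackets. The circles lie between -0.14 and 0.10, while the squares reach -0.67 for DNA replication.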

How the data were processed

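The files hold log2 expression values that the authors deposited after RMA (background correction, normalization across arrays and summary of probes), per the submitters' processing notes. RNA was extracted with Trizol and labelled with biotin, per the labels' protocols. No RMA version is named there. The 16 arrays hold 35556 probes. GEO's platform annotation gave 1 gene symbol to 21789, several to 1621 and none here to 12146. A probe was kept if its signal passed the 25th percentile of 4 or more arrays. For 861 genes several probes were kept, and the brightest on average was used. This left 16427 genes, 499 of them on X or Y.

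Group means were fitted over all 16 arrays with limma 3.58.1 in R 4.3.3 (lmFit and eBayes, two-sided, 12 residual degrees of freedom), with Benjamini-Hochberg adjustment over all genes and calls at an adjusted p under 0.05. The fit was tested on simulated data. Tables were made with pandas 2.3.3 and numpy 2.4.6 in Python 3.11.15, and plots with matplotlib 3.10.9. Near background means under the 95th percentile of 1240 chemosensory receptor probes on the same array.

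Same-numbered arrays of the 2 genotypes deviated together under anti-CD3 plus anti-CD28, with correlations of 0.54, 0.54, 0.2 and 0.59 across genes, against a median of -0.37 for unlike numbers. Under anti-CD3 they were 0.23, 0.28, 0.45 and 0.18, against -0.13. Deviations from a group mean cancel within the group, so positive same-numbered correlations push the unlike ones negative. The medians for unlike numbers are thus no separate evidence. The numbers were taken to pair the samples from the same-numbered correlations, a pairing that rests on these data and not on the labels.

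Named genes were Bhlhe40, the called genes with the largest differences off X and Y and without overlap of the groups, the 3 members with the smallest p of each of 32 gene lists, and a panel of activation, effector and clock genes. Genes beyond this rule are said to be chosen after their values were seen, or are other list members. The comparison, the lists and the panel were chosen with earlier results of these data known. Alternatives changed the scaling, filter, probe choice, variance model, block and replicates used.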

Additional observations from a re-analysis of the deposited data

Results flagged for a closer look

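In 59 genes whose values are given, each genotype under anti-CD3 plus anti-CD28 was searched for a single array far from the other 3 by Dixon's criterion. Of 118 groups 4 held such an array, and chance flags about 1 in 20 groups. Cd47 measured 5.90 in knockout replicate 1 against 10.85 to 11.74 in the others, and the same genotype and number was low under anti-CD3. Kif2c measured 9.29 in knockout replicate 1 against 9.43 to 9.45. Scd2 measured 8.12 in wild-type replicate 4 against 8.85 to 8.93. Gata3 measured 8.52 in wild-type replicate 3 against 7.86 to 7.97.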

How the results depend on the processing

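Bhlhe40 was called under all 22 alternatives, with differences of -4.08 to -3.17 and a highest adjusted p of 0.0044 (limma). Under anti-CD3 plus anti-CD28 the count of called genes was 1 throughout except with replicates 1 and 2 alone, where it was 2, and the count of called list members was then 1 (Il3). The test of the difference between the stimuli called 0 genes except with replicates 1 and 2 alone, where it called 80. Under anti-CD3, where the count was 169, it was 1954 with the replicate block, 1254 with the 2 sets of replicate numbers as a block, 261 with each array centred on its median, 597 with array weights and 46 with Xist level as a covariate. It was 1388 with replicates 1 and 2 alone and 0 with replicates 3 and 4 alone, and 7 to 452 when 1 array was left out. The cause was not tested. Of 4986 values of 228 named genes under alternatives, 77 moved by over 1 standard error, 1 was newly called and 0 lost a call, while 210 uncalled values of 74 genes took the other sign. The replicate block changed no call under anti-CD3 plus anti-CD28. The E-box share among called genes gave no value, as Bhlhe40 has no entry in the promoter table used. Signal near background limits what can be said of Klrd1, Pdk4, Csf2, Il3, Il1a and Cebpb on their dim arrays. The alternatives under anti-CD3, other than the replicate block, were chosen after seeing the data.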
